A study of Mus musculus with 2 samples.

Results

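The gamma and delta receptor chain genes followed here were 6 rows of the deposited gene lists, found by symbol: Trdc, Trgc1, Trgc2, Trgc4, Trgv2 and Trgv4, of 55357 genes listed. They were read in 2 single-cell libraries, 1 labelled SAP and 1 labelled Control, both made from T cells of the mouse ileum. The study exposed dendritic cells to phages isolated from SAP mice or from healthy mice, then cultured them with gut T cells of GF mice, and marked the T cells that met them with fucosyl-biotin, a proximity labelling method named FucoID. Gut T cells of GF mice are thus the stated source for both libraries, which are labelled by title alone. The labels do not spell out SAP or GF, do not say which phages the Control library received, do not give the strain, age or number of mice or the time of culture, and do not say whether the tagged fraction was sequenced. SAP and Control have 1 library each, so no difference between them could be checked against replicates, no test was made, and every 95% interval covers counting error only.

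A gamma-delta T cell carries a receptor built from a gamma chain and a delta chain, in place of the alpha and beta chains of most T cells. Each chain gene is assembled in the developing cell from variable (V), sometimes diversity (D), and joining (J) segments and is then spliced to a constant (C) gene. Trdc encodes the delta constant region and lies inside the alpha chain locus on chromosome 14, whose rearrangement can remove the delta genes between. The gamma locus on chromosome 13 holds several cassettes, each with its own V, J and C genes, and Trgc1, Trgc2 and Trgc4 are constant genes of different cassettes. Gamma-delta cells are abundant among the intraepithelial lymphocytes of the small intestine, where many carry the CD8 alpha homodimer (Cd8a) without CD8 beta (Cd8b1), and those of mouse gut often use the V segment named Trgv7 in the files.

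The gamma constant genes are copies of each other, and how alike they are bears on which UMIs (unique molecule counts) can be told apart. The sequences below were read from GENCODE M21 transcripts (GRCm38), since the counts are by gene and carry no sequence. The first 150 bases of the first exon are shown, with bases that differ from Trgc1 in capitals.
Trgc1: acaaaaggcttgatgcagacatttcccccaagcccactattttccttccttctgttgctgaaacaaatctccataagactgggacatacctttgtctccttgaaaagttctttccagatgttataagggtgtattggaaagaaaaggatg
Trgc2: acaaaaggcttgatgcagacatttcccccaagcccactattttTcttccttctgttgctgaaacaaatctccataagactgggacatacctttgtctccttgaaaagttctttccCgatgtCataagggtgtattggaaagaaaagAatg
Trgc4: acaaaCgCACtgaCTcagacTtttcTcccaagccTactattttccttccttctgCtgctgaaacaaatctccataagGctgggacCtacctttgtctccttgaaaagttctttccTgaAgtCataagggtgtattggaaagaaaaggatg

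Trgc2 differed from Trgc1 at 4 of these 150 bases and Trgc4 at 15. Over the whole first exon of 330 bases, identity to Trgc1 was 97.3% for Trgc2 and 82.1% for Trgc4. The middle exons, which encode the stretch that joins the constant domain to the membrane, differ in length and are shown because they set the 3 genes apart: 45 bases in Trgc1, 30 in Trgc2, and a pair of 54 and 45 bases in Trgc4.
Trgc1 exon 2: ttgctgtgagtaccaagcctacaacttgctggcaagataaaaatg
Trgc2 exon 2: ttgctacaacttgctggcaagataaaaatg
Trgc4 exon 2: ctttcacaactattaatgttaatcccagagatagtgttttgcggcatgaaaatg
Trgc4 exon 3: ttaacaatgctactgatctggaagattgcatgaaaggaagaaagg

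A 3' library reads mostly the end of a transcript, and there the pair Trgc1 and Trgc2 is the harder one to separate. In the last 300 bases they share an unbroken run of 104 identical bases, against 9 for Trgc4 with Trgc1. Trgc1 and Trgc2 UMIs are therefore uncertain as a split between these genes, while Trgc4 is distinct. A V segment lies at the other end of a spliced message, so its counts and those of its constant gene need not reflect the same reads. The gap also differed by segment. Trgv2, at 117 CPM in SAP and 113 CPM in Control, was not far below Trgc2, at 152 and 144 CPM. Trgv4 was far below Trgc1, at 17.8 and 13.6 CPM against 348 and 350 CPM. Trgv7, Trgv6 and Trgv5 also lie before Trgc1, so these gaps are not like for like. The source of V segment UMIs was not tested, and V and C levels are not compared further.

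After filters and doublet removal 4826 SAP and 5408 Control cells remained, with medians of 3371 and 3091 UMIs and median mitochondrial shares of 1.496% and 1.19%. Joint clustering without receptor genes gave 14 clusters, of which 11 were named T-like. Cluster 6, with 424 SAP and 419 Control cells, was left unnamed for its depth, a median of 916 UMIs with no T cell marker among its leading genes, although T cell markers summed to 5086 CPM in it, within the range of the T-like clusters. Cluster 11, with Folr1, S100a6 and Krt18 among its leading genes and no T cell marker among them, held 76 SAP and 47 Control cells but 8.43% and 3.36% of UMIs, with medians of 16277 and 2703 UMIs. It lowers the CPM of every T cell gene more in SAP than in Control, so values over T-like cells alone, which also leave out cluster 6, are given beside the main ones. Barcodes shared by the libraries numbered 6.

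Both libraries held gamma and delta transcripts in large and nearly equal amounts. Trdc had 8507 UMIs in 2079 SAP cells and 8619 UMIs in 2305 Control cells, which is 473 and 483 CPM (UMIs of the gene scaled to a fixed total over the retained cells of the library). The SAP over Control ratio was 0.979 (95% interval 0.950 to 1.009), an interval that holds 1. Of the gamma constant genes, Trgc1 stood at 348 CPM in SAP and 350 CPM in Control, a ratio of 0.994 (0.959 to 1.029). Trgc2 stood at 152 CPM in SAP and 144 CPM in Control, a ratio of 1.055 (0.999 to 1.114), and Trgc4 at 170 and 176 CPM, a ratio of 0.968 (0.921 to 1.018). Each of these intervals holds 1. Among the V segments, Trgv2, of the cassette of Trgc2, stood at 117 CPM in SAP and 113 CPM in Control, a ratio of 1.036 (0.974 to 1.102). Trgv4, a V segment upstream of Trgc1, was the one member apart: 320 UMIs in 280 SAP cells and 242 UMIs in 214 Control cells, or 17.8 and 13.6 CPM, a ratio of 1.312 (1.107 to 1.557).

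Trgv4 was thus the only member past 1.2-fold, and no member was past it downward or past 1.5-fold. Of the 5724 genes with at least 20 CPM in a library and 50 UMIs over both, 13.5% were at least 1.2-fold higher in SAP, 2.59% at least 1.2-fold lower, and 5.47% at least 1.5-fold apart either way. With TMM factors the balance turned, with 481 genes at least 1.2-fold higher and 526 lower, against 770 and 148 in CPM, and over T-like clusters it was 376 and 84. Trgv4 is below the level limit of that count, and the other 5 members passed it. The median ratio of the 6 members was 1.015, against 1.029 over those 5724 genes.

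In T-like cells alone all 6 ratios were above 1. They were 1.034 (1.003 to 1.066) for Trdc, 1.053 (1.016 to 1.091) for Trgc1, 1.130 (1.068 to 1.195) for Trgc2, 1.031 (0.980 to 1.085) for Trgc4, 1.098 (1.030 to 1.171) for Trgv2 and 1.335 (1.120 to 1.594) for Trgv4. The sides of 1 of Trdc, Trgc1 and Trgc4 thus turn with the cells taken, and those of Trgc2 and Trgv2 turn with TMM and with median-of-ratios scaling, while Trgv4 was above 1 under every scaling and cell choice run. TMM factors moved every gene by -0.11 on the log2 scale and UMIs per cell by 0.18. The chains of the alpha-beta receptor were lower in SAP in CPM over all retained cells (in T-like cells alone Trbc1 was not, at a ratio of 1.018), with Trac at 456 CPM in SAP and 501 CPM in Control, Trbc1 at 682 and 706 CPM and Trbc2 at 1039 and 1128 CPM.

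Because deeper cells show more genes, UMIs were drawn at random down to 1000 per cell before cells were counted. This kept 4324 SAP and 4901 Control cells, and 502 and 507 shallower ones were left out. Trdc was found in 29.995% of SAP cells (28.6 to 31.4) and 29.9% of Control cells (28.6 to 31.2), against 43.1% and 42.6% unthinned. Trgc1 was found in 24.6% of SAP and 24.0% of Control cells, Trgc4 in 15.7% and 15.5%, and Trgv2 in 11.3% and 10.4%. For each of these genes the intervals of the libraries overlapped. The same held for Trgc2, found in 14.3% of SAP cells (13.3 to 15.4) and 12.4% of Control cells (11.5 to 13.3), by a narrow margin. Trgv4 was found in 2.04% of SAP cells (1.64 to 2.50) and 1.51% of Control cells (1.19 to 1.89), intervals that also overlap. At least 1 member was found in 59.6% of SAP and 57.6% of Control cells, and in 76.9% and 75.4% unthinned. In the 3 clusters not named T-like the thinned share was 53.3% of 242 SAP cells and 65.5% of 223 Control cells, of which 167 and 183 were of cluster 6. That share is therefore no background from cells of another kind.

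**Figure D1:**
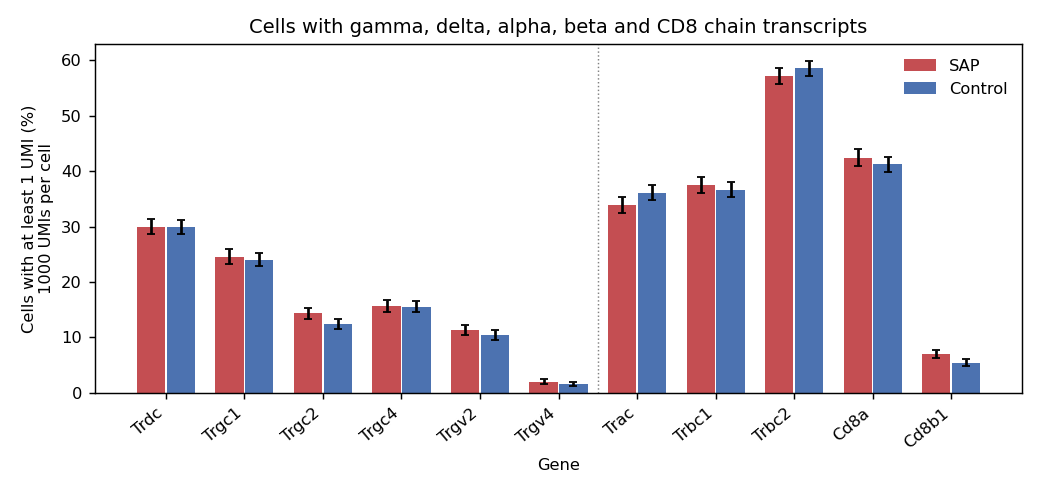
Share of cells with at least 1 UMI of each gene after thinning to 1000 UMIs per cell, SAP left of Control, with exact binomial 95% intervals that cover counting error only. The 6 gamma and delta genes stand left of the dotted line, led by Trdc at 29.995% and 29.9%, and the alpha, beta and CD8 chains right of it.

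Part of such shares can be free RNA, so they were set beside cells that should lack the genes. In cluster 8, whose 5 CD4 T cell markers include Cd4, Icos and Cd28, thinned shares in SAP and Control were 7.12% and 3.07% for Trdc, 3.203% and 2.45% for Trgc1, 2.85% and 1.84% for Trgc2, 1.78% and 1.53% for Trgc4 and 2.14% and 1.23% for Trgv2. Its median depths were 3509 and 3305 UMIs, close to those of all retained cells. Each of these 5 genes was therefore several times more frequent over all cells than in CD4 T-like cells. Trgv4 was found in 0.356% of the 281 SAP cells and in 0 of the 326 Control cells of cluster 8, which allows a share of up to 0.920%. In cluster 11 the thinned shares rest on 67 SAP and 34 Control cells, and were 1.49% and 17.6% for Trdc and 4.48% and 14.7% for Trgc1. Unthinned they were 17.1% and 21.3% for Trdc and 7.89% and 19.1% for Trgc1. SAP cells of cluster 11 had a median of 16277 UMIs, so thinning removed more of any free RNA there than in shallower cells.

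The constant genes carried most of the signal, and a few V segments the rest. Of 26 gamma and delta segments listed, 23 had a UMI and 13 had at least 50 over both libraries. The 6 members held 95.005% of all gamma and delta UMIs in SAP and 94.9% in Control. The V segments outside the members were each found in a small share of cells. Trgv7, the segment common in gut gamma-delta cells, had 305 SAP and 286 Control UMIs, and Trgv1, of the Trgc4 cassette, 277 and 315. Trdv2-2 led the delta V segments with 253 SAP and 241 Control UMIs, ahead of Trdv1 with 107 and 93, Trdv5 with 99 and 107, and Trdv4 with 62 and 80. Trgv3, upstream of the constant gene Trgc3, had 22 SAP and 29 Control UMIs. The ratio intervals of these 7 segments hold 1, for example 0.872 (0.740 to 1.029) for Trgv1 and 0.769 (0.543 to 1.085) for Trdv4. Trdd1, Trdd2 and Trdj2, which are very short, had no UMI in either library.

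Trdc and Trgc1 went together cell by cell. Among thinned cells with Trdc, 44.6% of SAP cells (41.8 to 47.3) and 43.2% of Control cells (40.6 to 45.8) also had Trgc1, against 16.0% and 15.8% of cells without Trdc. The other gamma genes were tied to Trdc far less. Trgc2 was found in 16.0% of SAP and 14.1% of Control cells with Trdc, against 13.6% and 11.6% without, and Trgc4 in 18.0% and 19.5% against 14.7% and 13.8%. Trgv2 was found in 13.3% of SAP and 12.2% of Control cells with Trdc, against 10.4% and 9.72% without. The intervals of cells with and without Trdc overlapped for Trgc2, Trgv2 and Trgv4 in both libraries, and for Trgc4 in SAP but not in Control.

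The second pair was Trgv2 with Trgc2, the V and C genes of 1 cassette. Trgc2 was found in 26.6% of SAP (22.7 to 30.7) and 24.8% of Control cells with Trgv2, against 12.8% and 10.9% of cells without it. Of the 15 pairs among the 6 members, 13 were found together more often than apart in both libraries, in the sense that the second gene was more frequent in cells with the first. The exceptions were Trgv4 with Trgc4 and with Trgv2, both below 1 in Control only, where 74 cells had Trgv4. How often other pairs of genes are found together was not counted, so the count of 13 is not read as a trait of the members. Cell depth was equal by thinning, but the amount of receptor RNA per cell was not, and its part in these pairs was not tested.

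**Figure D2:**
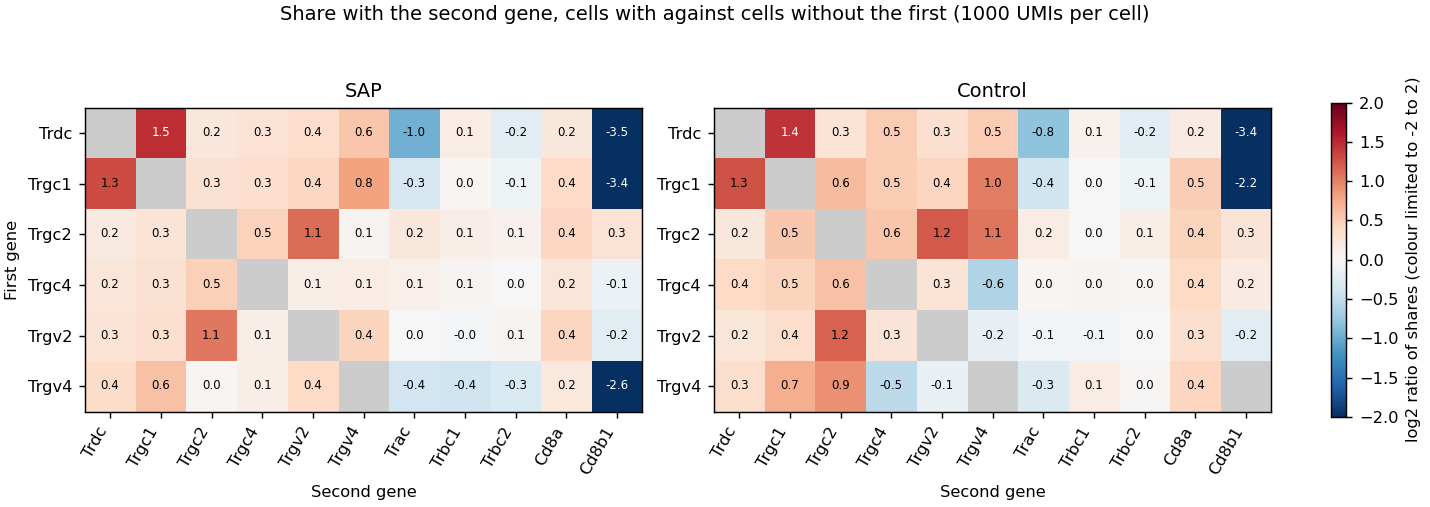
The log2 ratio of the share of cells with the second gene among cells with the first to that among cells without it, at 1000 UMIs per cell, with SAP left and Control right. Trdc with Trgc1 and Trgv2 with Trgc2 are the strongest positive pairs, and Cd8b1 is the strongest negative partner of Trdc and Trgc1; grey marks a gene with itself or a count of 0.

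Most cells with Trdc also held transcripts of the beta chain. After thinning, Trbc1 or Trbc2, the beta constant genes, was found in 69.3% of SAP cells with Trdc (66.7 to 71.8) and 70.2% of Control cells with Trdc (67.7 to 72.5), against 74.6% and 76.4% of cells without Trdc. Trbc1 was slightly more frequent with Trdc than without, 40.2% in SAP and 38.2% in Control against 36.3% and 36.05%. Trbc2 was less frequent, 51.1% in SAP and 52.6% in Control against 59.7% and 61.1%. In cluster 11 the thinned shares were 5.97% of SAP and 20.6% of Control cells for Trbc1 and 14.9% and 8.82% for Trbc2. Unthinned they were 22.4% and 27.7% for Trbc1 and 32.9% and 31.9% for Trbc2. SAP cells of cluster 11 had a median of 16277 UMIs, so thinning removed more of any free RNA there than in shallower cells. Its thinned shares are therefore no like background for cells with Trdc. At the stricter limit of 3 UMIs of each gene without thinning, 40.7% of SAP cells with Trdc had Trbc1 and 54.99% had Trbc2. SAP cells below that limit of Trdc had them in 27.9% and 47.2%. In Control the shares were 37.8% and 52.3% with Trdc, against 27.2% and 48.1% without. Trbc2 was thus more frequent with Trdc at this limit, where depth was not made equal, and less frequent after thinning.

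The alpha chain behaved otherwise. Trac was found in 20.4% of SAP cells with Trdc (18.3 to 22.7) and 23.6% of Control cells with Trdc (21.5 to 25.9), against 39.6% and 41.4% of cells without Trdc. Cd8b1, the CD8 beta chain of conventional cytotoxic T cells, separated the cells most: 0.848% of SAP cells with Trdc (0.424 to 1.51) and 0.683% of Control cells with Trdc (0.328 to 1.25), against 9.58% and 7.36% without. That is at or below the background of cluster 8, where Cd8b1 was found in 2.14% of SAP and 2.45% of Control cells. Cd8a, the CD8 alpha chain, was more frequent with Trdc, at 47.3% in SAP and 44.6% in Control against 40.4% and 39.8% without. Trgc1 showed a like pattern: Cd8b1 was found in 0.847% of SAP and 1.45% of Control cells with Trgc1, against 8.95% and 6.60% without. Trgc2 did not, with Cd8b1 in 8.24% of SAP and 6.26% of Control cells that had Trgc2, against 6.75% and 5.24% without. For Trgv4, Cd8b1 was found in 1.14% of 88 SAP cells and 0 of 74 Control cells, which allows a share of up to 4.05%.

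Sorting cells by their number of Trdc UMIs gave the same picture in steps. Cells were thinned to 2000 UMIs for this, which left 3649 SAP and 4128 Control cells, and the number of Trdc UMIs is itself a thinned count. Cells with Trgc1 made up 18.4%, 56.9%, 64.4%, 58.3% and 70.9% of SAP cells with 0, 1, 2, 3 and at least 4 Trdc UMIs, and 18.0%, 50.8%, 62.4%, 62.3% and 67.1% of Control cells. A single Trdc UMI thus went with most of the step in Trgc1. Trac was lower past the same step, found in 63.7% of SAP and 64.9% of Control cells with 0 Trdc UMIs and between 34.2% and 47.0% in SAP and 39.1% and 41.9% in Control with at least 1, without a further decline. Trbc2 was found in 80.6% of SAP and 82.5% of Control cells with 0 Trdc UMIs and still in 72.3% and 75.9% with at least 4. Cd8b1 was found in 15.7% of SAP and 14.9% of Control cells with 0 Trdc UMIs, and in 1.13% and 1.10% with at least 4. Trgc4 was found in 24.0% of SAP and 23.5% of Control cells with 0 Trdc UMIs and 34.7% and 40.3% with at least 4.

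**Figure D3:**
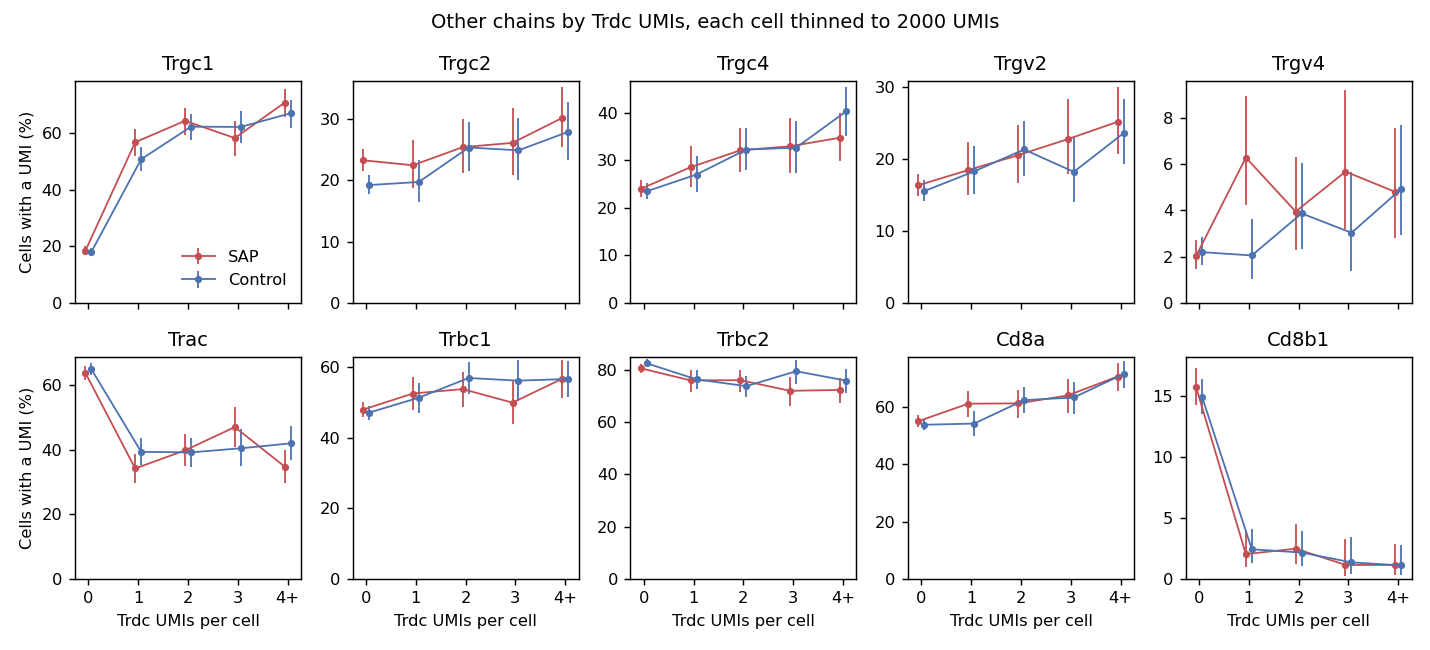
Share of cells with each gene by the number of Trdc UMIs, every cell thinned to 2000 UMIs, SAP in red and Control in blue, with exact binomial 95% intervals. Trgc1 steps up at 1 Trdc UMI, from 18.4% and 18.0% with none, while Trac and Cd8b1 step down and Trbc1 and Trbc2 move less.

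Receptor classes by UMIs made the contrast in levels. Cells with at least 2 Trdc UMIs and no Trbc UMI (delta cells) were few, 113 in SAP (2.34%) and 147 in Control (2.72%). Cells with at least 2 UMIs of Trdc and of Trbc (both) were 1353 in SAP (28.0%) and 1475 in Control (27.3%), and cells with at least 2 Trbc UMIs and no Trdc UMI (beta cells) were 2061 in SAP (42.7%) and 2383 in Control (44.1%). The delta cells were also shallow, with median depths of 2553 and 2117 UMIs against 4004 and 3679 in cells with both, and the part of depth in the lack of Trbc was not tested. Scrublet scores removed 202 SAP and 257 Control barcodes as doublets before this count, and the part of doublets that remained in the cells with both was not tested.

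In cells with at least 2 Trdc UMIs, with or without Trbc, Trgc1 stood at 708 CPM in SAP and 681 CPM in Control, against 128 and 125 CPM in beta cells of SAP and Control, a fold of 5.52 (5.15 to 5.91) in SAP and 5.45 (5.09 to 5.84) in Control. The other constant genes and Trgv2 differed far less between these cells. Trgc2 stood at 178 CPM in SAP and 164 CPM in Control, against 163 and 139 CPM in beta cells, and Trgc4 at 219 and 225 CPM against 165 and 154 CPM. Trgv2 stood at 136 CPM in SAP and 133 CPM in Control, against 115 and 103 CPM in beta cells. The low V segment Trgv4 had folds of 2.36 (1.81 to 3.10) in SAP and 1.66 (1.24 to 2.23) in Control. In the delta cells alone, Trgc1 was 4.71-fold and 4.36-fold above beta cells, close to the value with the cells that also had Trbc.

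The makeup of the gamma constant transcripts differed between these cells. Of all Trgc1, Trgc2 and Trgc4 UMIs, Trgc1 made up 64.2% in SAP and 63.9% in Control cells with both Trdc and Trbc, and 60.9% and 59.0% in delta cells, against 28.1% and 29.9% in beta cells. Trgc2 made up 35.7% in SAP and 33.2% in Control beta cells, and Trgc4 36.2% and 36.9%. Thinned, Trgc2 was found in 14.2% of SAP and 11.6% of Control beta cells and Trgc4 in 14.5% and 13.6%, above the shares of the CD4 T-like cluster given earlier. Trgv7 stood at 37.6 CPM in SAP and 34.5 CPM in Control cells with at least 2 Trdc UMIs, against 3.04 and 3.74 CPM in beta cells.

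**Figure D4:**
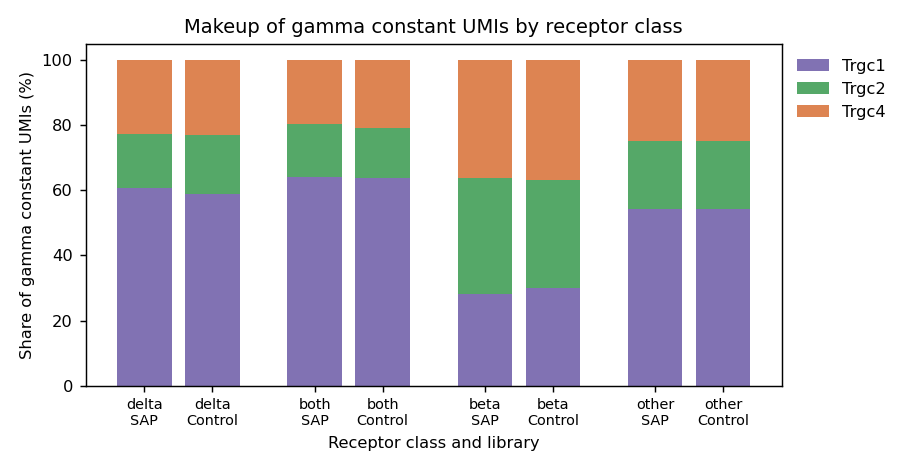
Makeup of the summed Trgc1, Trgc2 and Trgc4 UMIs in delta, both, beta and other cells, SAP left of Control in each pair. Trgc1 makes up 64.2% and 63.9% in cells with both chains and 28.1% and 29.9% in beta cells; the split between Trgc1 and Trgc2 is uncertain because of their shared sequence.

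In most cells with several gamma constant UMIs, more than 1 of the 3 genes was counted. Among cells with at least 5 UMIs of the 3 genes, 917 in SAP and 844 in Control, 1 gene held at least 90% of them in 14.5% of SAP (12.3 to 17.0) and 14.6% of Control cells (12.3 to 17.1). That gene was Trgc1 in 120 of 133 such SAP cells and 106 of 123 such Control cells. All 3 genes had a UMI in 38.5% of cells of each library. For the beta constant genes the same count, over cells with at least 5 Trbc UMIs, gave 22.6% in SAP and 22.8% in Control cells with both chains, and 39.9% and 41.9% in beta cells. With 80% as the limit the gamma shares were 34.9% in SAP and 39.9% in Control.

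The V segments Trgv1, Trgv2, Trgv4 and Trgv7 were compared with the constant genes of their own and of other cassettes. In the order of GENCODE M21 along chromosome 13, Trgv7 and Trgv4 lie before Trgc1, Trgv2 beside Trgc2 on the opposite strand, and Trgv1 before Trgc4. With cells at 2000 UMIs, Trgc1 was found in 81.3% of SAP cells with Trgv7 (73.3 to 87.8) and 72.9% of Control cells with Trgv7 (63.9 to 80.7), against 34.6% and 33.7% of cells without it. Trgv4 cells had Trgc1 in 55.8% of SAP (46.5 to 64.9) and 54.5% of Control cells (44.8 to 64.1), against 35.5% and 34.2%. Trgc1 was thus more frequent in cells with Trgv7 and in cells with Trgv4 than in cells without them. Trgv6 and Trgv5 also lie before Trgc1 and were not compared. Trgc2 was found in 42.2% of SAP and 37.4% of Control cells with Trgv2, against 20.3% and 17.8% without, and Trgc4 in 37.3% and 45.5% of cells with Trgv1, against 26.8% and 26.4% without. For Trgv1 with Trgc4 the intervals overlapped in SAP and not in Control. Constant genes of other cassettes were also more frequent in several cases. Trgv2 cells had Trgc1 in 45.1% of SAP and 44.4% of Control cells, against 34.2% and 32.8% without Trgv2, and Trgv7 cells had Trgc2 in 36.6% and 33.1%, against 23.9% and 20.8%. Trgv4 cells had Trgc2 in 28.3% of SAP cells (20.5 to 37.3) and 36.4% of Control cells (27.4 to 46.1), against 24.2% and 20.8%, which in Control is a larger ratio than with Trgc1. The association was therefore not limited to the own cassette.

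Trdc was found in 81.3% of SAP and 76.3% of Control cells with Trgv7, but in 46.9% of SAP and 46.9% of Control cells with Trgv2, against 38.7% and 38.9% without Trgv2.

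Across clusters the members spread over an order of magnitude. Over the 9 T-like clusters that held 100 or more cells of SAP and of Control, Trdc ran between 54.7 CPM in cluster 5 and 745 CPM in cluster 1 of SAP, and between 38.4 CPM in cluster 8 and 826 CPM in cluster 10 of Control. Clusters 1, 2, 3, 9 and 10 held the highest Trdc, at 661 CPM or more in SAP and 611 CPM or more in Control, and neighbours in that order had overlapping intervals, except cluster 10 above cluster 1 in Control. Leading genes of these clusters include Tyrobp and Cd244a in cluster 1 and the heat shock gene Hspa1b in cluster 10. Cluster 7, led by Xcl1, Tcf7 and Kit, stood at 545 CPM in SAP and 596 CPM in Control.

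The low end held clusters with genes of conventional T cells. Cluster 4, with Cd8b1, Cd5 and Cd6 among its leading genes, stood at 295 CPM of Trdc in SAP and 314 CPM in Control, and cluster 5, with the same genes, at 54.7 and 52.0 CPM. The CD4 T-like cluster 8 stood at 73.9 CPM in SAP and 38.4 CPM in Control. Trgc1, Trgc2, Trgc4 and Trgv2 had their highest level of these clusters in cluster 1 and their lowest in cluster 8 in both libraries. Trgc1 stood there at 665 CPM in SAP and 673 CPM in Control in cluster 1, and at 51.4 and 18.0 CPM in cluster 8. The shallow cluster 6, not one of these clusters, had a median mitochondrial share of 4.56%. In cluster 6 Trgv2 stood at 308 CPM in SAP and 295 CPM in Control, against 233 and 232 CPM in cluster 1. These Trgv2 intervals overlapped in Control only. For Trgc2, cluster 6 stood at 270 and 308 CPM against 277 and 293 CPM, with overlapping intervals. Trgc2 and Trdc ordered clusters 3 and 4 differently: Trgc2 stood at 206 CPM in SAP and 167 CPM in Control there, against 137 and 133 CPM in cluster 3, while Trdc was at 693 and 660 CPM in cluster 3. The small cluster 12, led by the Ly49 genes Klra7 and Klra1, had little Trdc, 144 CPM in SAP and 107 CPM in Control, and more Trgc4, 240 and 219 CPM.

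**Figure D5:**
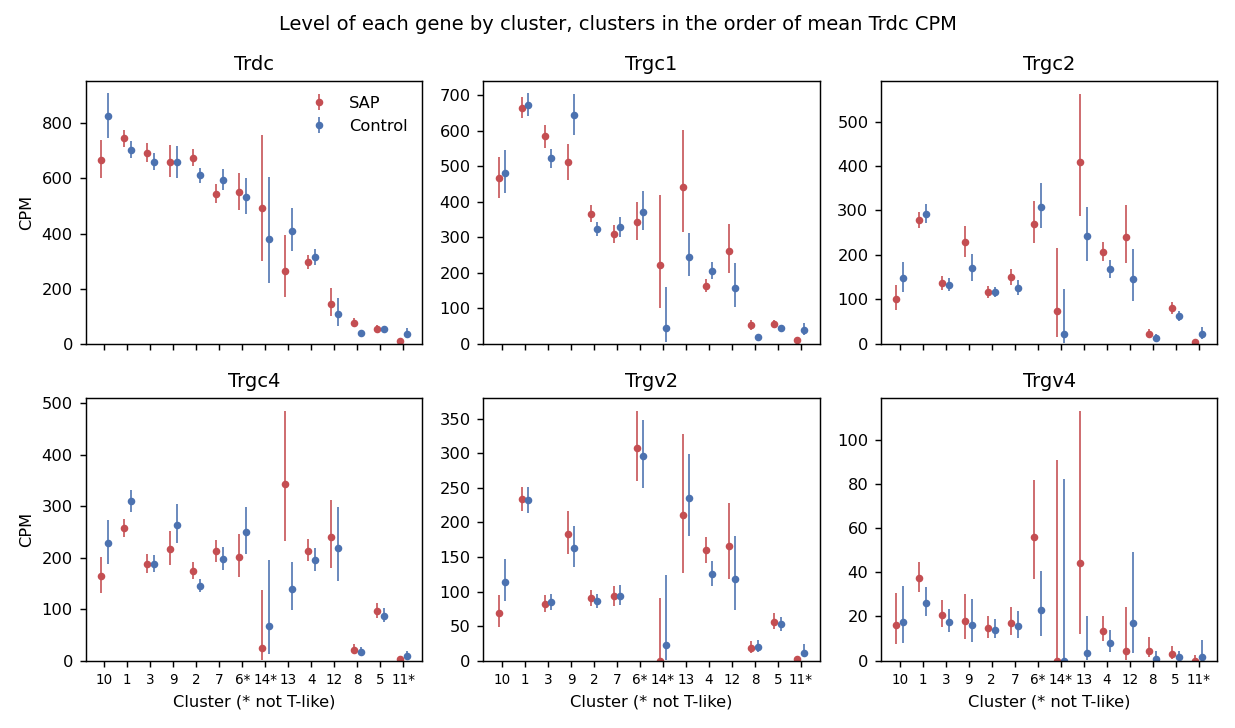
Level in CPM of each gene by cluster and library with exact Poisson 95% intervals, clusters ordered by mean Trdc CPM and an asterisk on clusters that are not T-like, SAP left of Control. Trgc1 does not follow the Trdc order step by step (cluster 10 is below cluster 1 in Trgc1). Trgc2 and Trgv2 are higher in cluster 4 than in clusters 2 and 3, though for Trgc2 the intervals of clusters 4 and 3 just overlap in Control. Trgc4 is higher in cluster 4 than in cluster 2, while its intervals in clusters 4 and 3 overlap in both libraries. The asterisk on cluster 6 stands for its depth.

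Between the libraries, ratios within clusters scattered on both sides of 1. Of 60 pairs of a member and one of the 10 clusters of that size, the interval lay above 1 in 12 and below 1 in 7, with no adjustment for the number of pairs. The same share over all genes was not counted, so these counts are no result about the members. Of the ratios with an interval clear of 1, the largest were 2.86 for Trgc1 in the CD4 T-like cluster 8, 2.47 for Trgv4 in cluster 6 and 1.93 for Trdc in cluster 8, all on few UMIs. Trgv4 in cluster 8, with 5 SAP UMIs and 1 Control UMI, had a ratio of 5.53 (0.618 to 261). Trgc1 had 57 UMIs in 22 of 288 SAP cells there, against 22 UMIs in 18 of 350 Control cells, and 1 SAP cell held 23 of the 57. Trdc had 82 UMIs in 28 SAP cells of that cluster, against 47 UMIs in 21 Control cells. Trgv4 was above 1 in cluster 1, with 118 SAP and 69 Control UMIs, a ratio of 1.426 (1.051 to 1.948), and in the shallow cluster 6, with 27 and 11 UMIs, a ratio of 2.47 (1.19 to 5.52). Over cells with both Trdc and Trbc its ratio was 1.448 (1.115 to 1.885), against 1.051 (0.772 to 1.432) over beta cells, and the difference between these ratios was not tested.

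Genes outside the receptor loci were ranked by how they varied with Trdc from cell to cell. Likeness was Pearson's r of log-scaled UMIs over 4318 SAP and 4935 Control T-like cells for each of 4833 genes, given as a description, since cells of a library share depth and source. The genes most like Trdc were Fcer1g, a signalling adaptor that can replace CD3 zeta, with r of 0.30 in SAP and 0.31 in Control, Klrd1 (CD94), Cd3g, Cd7, Cd3e, Car2, Ikzf2, which encodes Helios, and Fgl2. All 8 lay between 0.19 and 0.31. The least like were Cd6, with -0.35 in SAP and -0.35 in Control, Cd5, Cd8b1, Cd28, Rora, Icos, Cd4 and Cd2. Among the receptor genes, Trdc with Trgc1 had 0.53 in SAP and 0.52 in Control, Trgc2 with Trgv2 0.29 and 0.27, and Trdc with Trac -0.33 and -0.31.

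Trgc1 was most like Fcer1g, Cd7, Klrd1, Cd3g and Tyrobp, of which all but Tyrobp also led the list of Trdc, with 0.41 in SAP and 0.38 in Control for Fcer1g. Trgc2 was most like Cd7, Cd8a, Cd3g, Actb and Ptprcap, Trgc4 like Cd7, AW112010, Cd3g, Fcer1g and Tmsb4x, and Trgv2 like Cd7, Cd8a, Klrd1, Itgae and Cd200r1, with r no higher than 0.25. For Trgv4, Itgae, Chn2, Cd7, Fgl2 and AU020206 headed the list outside the receptor loci, with r no higher than 0.083, and Trgc1 had 0.11 in SAP and 0.085 in Control. So low a correlation in sparse counts is no finding.

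Lists of genes around the gamma-delta receptor were compared between the cells with at least 2 Trdc UMIs and beta cells. Over 5330 genes outside the receptor loci, 0.582% were at least 1.5-fold higher in both libraries and 1.91% at least 1.5-fold lower. On the conventional alpha-beta list, Cd5, Cd6, Cd28, Cd2, Cd4, Cd8b1 and Icos passed the level limit of 20 CPM only through beta cells, so the limit fixed their direction and no count or median of that list is given. Cd5, a brake on receptor signalling, stood at 5.94 CPM in SAP and 2.65 CPM in Control, against 115 and 123 CPM in beta cells. Cd6 stood at 18.6 CPM in SAP and 14.9 CPM in Control, against 226 and 233 CPM, and Cd28, the costimulatory receptor, at 5.44 and 3.48 CPM against 91.4 and 84.3 CPM. Thy1, which passed the limit in both kinds of cell, stood at 30.7 CPM in SAP and 29.2 CPM in Control, against 92.2 and 74.3 CPM, and Ctla4, which also did, was lower too. Satb1 passed it in both kinds of cell as well, at 38.4 CPM in SAP and 36.8 CPM in Control, against 58.1 and 52.7 CPM. Its folds of 0.66 and 0.70 were not past 1.5-fold in both libraries. Beta cells include the CD4 T-like cluster, which carries several genes of that list.

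Higher genes were fewer. Of 14 genes of the natural intraepithelial list, 3 were higher. Kit, a growth factor receptor, stood at 115 CPM in SAP and 128 CPM in Control, against 59.0 and 58.1 CPM in beta cells, and Klrd1 at 1076 and 1148 CPM against 688 and 643 CPM. Fcer1g, also on the CD3 list as 1 of 7 genes, had folds of 1.57 in SAP and 1.55 in Control and was the only gene of that list past 1.5-fold. The Ly49 gene Klra7 passed the limit only through beta cells, so the limit fixed its direction and it is not counted. It stood at 5.77 CPM in SAP and 6.47 CPM in Control, against 60.5 and 44.0 CPM. Of the 7 gamma-delta lineage regulators that passed the level limit, Maf was lower and none was higher. Sox4 was not among the 7, at 5.64 CPM in Control against 3.74 CPM in beta cells. In SAP Sox4 stood at 23.7 against 4.82 CPM, past 20 CPM only in the cells with at least 2 Trdc UMIs. Maf stood at 28.2 CPM in SAP and 24.4 CPM in Control, against 128 and 118 CPM. Maf is a leading gene of the CD4 T-like cluster 8, which held 198 SAP and 241 Control beta cells. The part of that cluster in this gap was not tested.

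Some gamma-delta cells elsewhere make the cytokine IL-17. Of the 10 genes of that programme 1 was missing from the gene lists and Il17a alone passed the level limit, through beta cells only. It stood at 1.15 CPM in SAP and 0.166 CPM in Control cells with at least 2 Trdc UMIs, against 54.0 and 54.9 CPM in beta cells. Il17a is also a leading gene of the CD4 T-like cluster 8, which is part of the beta cells. Of 5 recombination and locus genes, Il7r, the IL-7 receptor chain, was lower, at 27.9 CPM in SAP and 25.4 CPM in Control against 123 and 107 CPM. In delta cells alone, where 4.65% of 5422 genes were at least 1.5-fold higher in both libraries and 2.69% lower, the genes past that fold were partly different ones. On the intraepithelial list Kit, Cd244a and Itgae were higher and Klre1 lower. Klra7, at 0 CPM in delta cells of both libraries, passed the level limit only through beta cells, so the limit fixed its direction. Fcer1g, with folds of 1.30 in SAP and 1.21 in Control, and Klrd1, with 1.44 and 1.52, were not past it in both libraries. On the CD3 list Cd247 was higher, and of the 7 lineage regulators Maf and Tcf7 were lower. In SAP delta cells Maf, at 9.96 CPM, and Tcf7, at 19.9 CPM, were under 20 CPM and passed only through beta cells. In Control delta cells each stood at 39.6 CPM. Between SAP and Control, over all retained cells, the list medians lay between -0.11 and 0.02 on the log2 scale, leaving out the IL-17 list, against 0.04 over all 5724 genes.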

How the data were processed

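The 2 10x Genomics 3' version 3 libraries of mouse ileum T cells are described, 1 labelled SAP and 1 labelled Control. The deposited counts are raw UMIs per gene and barcode, and the file headers name Cell Ranger 7.1.0 as their writer; mm10, Cell Ranger and Seurat are named in the submitters' processing notes. GENCODE M21 holds 52081 of the listed gene identifiers and lacks 3276, so symbols were taken from the deposited lists, GENCODE M21 (GRCm38) was used for sequence and gene order, and no coordinates are given. Whether the counting used strand is not given in the sources used here.

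The libraries held 5203 SAP and 5737 Control barcodes, with 19144320 and 19142384 UMIs. Kept were barcodes with 500 or more UMIs, 300 or more genes and no more than 10% mitochondrial UMIs, 5028 and 5665. Scrublet (scanpy 1.11.5) marked almost none by its automatic threshold, so the top scores were removed at 0.8% per 1000 barcodes. Clusters came from 2000 variable genes without receptor, ribosomal or mitochondrial genes (30 components, 15 neighbours, Leiden resolution 0.8, leidenalg 0.10.2, both libraries together), and were named T-like by markers and depth. Levels are CPM over retained cells. Ratios have exact conditional binomial intervals, shares exact Clopper-Pearson intervals and levels exact Poisson intervals, all at 95%, and intervals and the limit of 3 counts for a count of 0 cover counting error only. The ratio interval was run on simulated counts drawn as independent Poisson sums per gene. UMIs gathered in few cells were not simulated, so that run does not show how the interval holds for them. With 1 library per group no test was possible. Gene counts over many genes took at least 20 CPM in a library and 50 UMIs over both.

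Named were the 6 genes, the segments with at least 50 UMIs, the alpha, beta and CD8 chains, the 8 genes most and least like Trdc, the 5 most like each other member, and listed genes past 1.5-fold. The members, the gene lists and the tests were chosen with earlier results of these data known, and the bins of Trdc UMIs and the joining of delta cells with cells of both chains were chosen after seeing the data. Alternatives covered filters, doublets, scaling (edgeR 4.0.16 TMM factors and DESeq2 1.42.0 median-of-ratios factors, with no test), thinning, thresholds and clustering. Python 3.11.15, numpy 2.4.6, scipy 1.17.1 and biopython 1.88 were used.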

Additional observations from a re-analysis of the deposited data

Results flagged for a closer look

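For 5 of the 6 genes, all but Trgv4, the SAP over Control ratio lay above 1 in some clusters and below 1 in others, each time with a counting interval clear of 1. These were 17 ratios. For Trdc they were 1.11 in cluster 2, 1.93 in cluster 8 and 0.808 in cluster 10. For Trgc1 they were 1.13 in cluster 2, 1.12 in cluster 3 and 2.86 in cluster 8, with 0.795 in cluster 4 and 0.793 in cluster 9. Trgc2 had 1.23 in cluster 4, 1.31 in cluster 5 and 1.34 in cluster 9, and 0.688 in cluster 10. Trgc4 had 1.199 in cluster 2, 0.831 in cluster 1 and 0.718 in cluster 10, and Trgv2 had 1.28 in cluster 4 and 0.609 in cluster 10. Cluster 10, led by heat shock genes, was below 1 for all 6 genes, with an interval clear of 1 for Trdc, Trgc2, Trgc4 and Trgv2. None of these differences between clusters was tested, since each rests on 1 library per group. How often other genes show such ratios within clusters was not counted.

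Barcodes that failed the cell filters, 175 in SAP and 72 in Control, held some members at levels above those of retained cells and others below. Trgv2 stood there at 144 CPM in SAP and 279 CPM in Control, on 19 and 19 UMIs, against 117 and 113 CPM in retained cells. Trgv4 stood at 30.3 CPM in SAP and 73.3 CPM in Control, on 4 and 5 UMIs, and Trgc2 at 196.6 CPM in SAP, on 26 UMIs, but at 103 CPM in Control, on 7 UMIs. Trdc stood at 279.8 CPM in SAP and 396 CPM in Control, Trgc1 at 129 and 176 CPM and Trgc4 at 90.8 and 132 CPM, each below the level of retained cells.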

How the results depend on the processing

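No paired analysis was possible because each group has 1 library. The log2 ratios of SAP over Control changed with the scaling. Over T-like clusters they were 0.048 for Trdc, 0.074 for Trgc1, 0.18 for Trgc2 and 0.044 for Trgc4. With TMM factors they were -0.14, -0.11, -0.028 and -0.15 for the same genes and -0.054 for Trgv2, and with median-of-ratios factors -0.11, -0.092, -0.0050 and -0.13. As UMIs per cell they were 0.15, 0.17, 0.25, 0.13 and, for Trgv2, 0.23, and relative to the CD3 chains 0.068, 0.089, 0.18, 0.052 and 0.15. Trgv4 lay between 0.27 and 0.57 under the 12 alternatives run on it. Genes at least 1.2-fold higher in SAP numbered 770, against 376 in T-like clusters, 481 with TMM and 10636 with no limit on level, and lower ones 148, against 84, 526 and 5492, and 402 with median-of-ratios factors. Cells with Trdc made up 40.2% of SAP and 40.3% of Control cells at 2000 UMIs, 43.1% and 42.6% unthinned, and 14.2% and 13.4% with at least 2 UMIs. Among cells with Trdc, Trbc1 or Trbc2 was found in 89.9% of SAP and 90.3% of Control cells unthinned and 86.9% and 88.6% at 2000 UMIs, Trgc1 in 69.9% and 67.7%, and 62.6% and 59.7%, and Cd8b1 in 2.65% and 2.91%, and 1.77% and 1.86%. With at least 3 unthinned UMIs the Control values were 67.7%, 40.1% and 0.152%. A gamma constant gene held 80% of UMIs in 34.9% of SAP and 39.9% of Control cells, and with at least 10 UMIs 90% in 8.93% of Control cells. The lowest T-like cluster of SAP had 73.5 CPM of Trdc at resolution 0.5 and 76.8 CPM with components centred per library, and the highest of Control 699 and 683 CPM, and 748 CPM at resolution 1.2. The cause of these changes was not tested. Leaving out the 6 shared barcodes or shallow cluster 6, both added after seeing the data, moved no ratio of a member beyond its interval.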
